A study of Rattus norvegicus with 30 samples.

Results

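The livers of CAR knockout (CAR KO) rats fed phenobarbital (PB) were compared with those of CAR KO rats fed control diet, which asks what is left of the liver's response to this drug when its main receptor has been removed. The samples were chosen by their titles: 4 arrays of CAR KO rats on 1000 ppm PB for 7 days and 4 of CAR KO rats on 0 ppm, 8 of the 30 arrays of the series. All animals were male, and both CAR KO groups carry the knockout. By the labels they differ in diet, and the row of the slide differed with it. Crl:CD(SD) rats (SD rats, an outbred stock with intact CAR) on the same 2 diets, 4 arrays each, serve as the comparison. The other arrays of the series are of chimeric mice with rat hepatocytes, 7 on each diet, which hold mouse cells too. They entered only the alternative fit of all 30 arrays, where they share in the estimate of the spread. How the knockout was made, its strain background and the age of the animals are not given in the sources used here. The labels call the arrays of a group biological replicates.

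Phenobarbital is a barbiturate anticonvulsant and the classical inducer of liver drug metabolism. It activates the constitutive androstane receptor (CAR, encoded by Nr1i3), which then moves from the cytoplasm to the nucleus, pairs with the retinoid X receptor and switches on genes of the Cyp2b and Cyp3a families together with their reductase, conjugating enzymes and transporters. The pregnane X receptor (PXR, encoded by Nr1i2) shares many of these target genes, and several of the conjugating and antioxidant enzymes also answer to the stress-responsive factor NRF2.

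Levels below are log2 of the scanner's processed signal minus the array's 75th percentile of it, so 0 is the 75th percentile of all probes on that array. Fold changes are log2 differences, PB minus control, with their standard error. To be tested, a gene needed a probe that the scanner software marked as well above background on 75% or more of either diet group's arrays, and it passed at a limma adjusted p under 0.05 over all genes tested. Of 17552 genes and unnamed transcripts tested in CAR KO rats, 36 passed, 0.205%. Each level was measured on 4 arrays a group, and their number limits the precision.

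The Nr1i3 probe did not separate the models. Its level was 1.13, 1.30, 0.69 and 1.35 in CAR KO controls and 0.50, -0.21, 1.04 and 1.15 in CAR KO rats given PB. SD controls lay at 0.92, 1.88, 0.76 and 1.14, within which most CAR KO values fall. A second Nr1i3 probe was also above background on all 8 CAR KO arrays. Which part of the gene was deleted is not stated in these sources, so the probes do not check the labels.

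The arrays of a group correlated closely, with r across probes of 0.992 to 0.994 among CAR KO controls and 0.988 to 0.989 among CAR KO PB arrays. The 75th percentile signal was 506 ± 23.9 (SD, n = 4) on control arrays and 503 ± 52.9 (SD, n = 4) on PB arrays. Fewer probes were well above background on PB arrays, 62.7% ± 1.81 against 65.9% ± 1.11 (SD, n = 4 each), and in SD rats it was 59.8% ± 0.862 against 64.1% ± 0.601. Per the file headers, all CAR KO arrays shared 1 slide and all SD arrays another, and on both slides the control arrays lay in row 1 and the PB arrays in row 2. Diet and slide row therefore cannot be told apart, nor can rat model and slide.

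All 22 hepatocyte markers, such as albumin and the apolipoproteins, were above background on all 8 CAR KO arrays, and their summed linear level overlapped between the diets, 5627 to 6052 on control arrays and 5397 to 6012 on PB arrays. The summed level of 12 cholangiocyte markers did not overlap: it was 19.1 to 23.6 on control arrays and 11.7 to 18.9 on PB arrays. The sum is of linear levels, so the brightest markers weigh most in it. Of the 8 cholangiocyte markers tested 0 passed, 1 was lower on every PB array (all genes, 7.1%), and the median fold change was -0.09. All 18 Kupffer cell and macrophage markers had a negative fold change, with a median of -0.18 against -0.022 over all genes, yet for none of them (0) did the groups separate and their summed levels overlapped, 96.1 to 147.9 on control arrays against 78.1 to 121.7. The part of these cells in the results below was not tested. In bulk liver RNA, fewer cells of a type and less RNA per cell cannot be told apart.

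For 4 genes the results turn on, the 250 bases before the start site are shown, from RefSeq on the GRCr8 build. Htatip2 and Clybl rose in CAR KO rats, Pfkfb1 fell there, and Cyp2b2 is the classical CAR target, with overlapping groups there. Capitals mark any match, on either strand, to TGACNNNGC (the core of the antioxidant response element that NRF2 binds), AGAACA (a glucocorticoid receptor half-site) or AGGTCA (a nuclear receptor half-site).
Htatip2, chr1:108609945-108610194, plus strand: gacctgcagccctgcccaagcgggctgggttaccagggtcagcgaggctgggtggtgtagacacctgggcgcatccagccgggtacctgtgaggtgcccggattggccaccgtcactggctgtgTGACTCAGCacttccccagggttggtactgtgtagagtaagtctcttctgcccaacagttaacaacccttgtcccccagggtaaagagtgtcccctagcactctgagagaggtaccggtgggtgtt
Clybl, chr15:105690058-105690307, plus strand: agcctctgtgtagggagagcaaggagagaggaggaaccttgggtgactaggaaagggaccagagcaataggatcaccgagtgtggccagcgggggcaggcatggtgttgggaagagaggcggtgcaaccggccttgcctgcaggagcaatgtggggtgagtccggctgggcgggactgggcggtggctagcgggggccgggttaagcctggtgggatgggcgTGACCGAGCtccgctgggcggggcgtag
Pfkfb1, chrX:22941926-22942175, plus strand: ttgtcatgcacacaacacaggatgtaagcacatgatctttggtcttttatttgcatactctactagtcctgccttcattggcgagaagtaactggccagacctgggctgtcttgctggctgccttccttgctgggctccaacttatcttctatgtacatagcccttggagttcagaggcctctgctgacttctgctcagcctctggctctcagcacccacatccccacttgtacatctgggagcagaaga
Cyp2b2, chr1:90722031-90722280, plus strand: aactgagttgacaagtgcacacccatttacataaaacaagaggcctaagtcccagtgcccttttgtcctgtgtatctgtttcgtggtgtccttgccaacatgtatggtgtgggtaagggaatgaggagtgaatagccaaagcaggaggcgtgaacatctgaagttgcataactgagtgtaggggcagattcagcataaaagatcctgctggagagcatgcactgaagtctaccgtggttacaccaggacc

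Of all 33469 rat promoters in the table, 10.1% held TGACNNNGC in the same window, 17.5% AGAACA and 14.1% AGGTCA. The Htatip2 window held TGACTCAGC, whose first base is at -126 from the start site, and the Clybl window held TGACCGAGC, whose first base is at -28. The windows of Pfkfb1 and Cyp2b2 held none of these letters. A match describes the letters only and shows no binding.

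The classical CAR targets showed no PB response that passed the test in CAR KO rats. Cyp2b2, a classical phenobarbital-inducible P450, stood at 2.74, 2.89, 2.90 and 2.94 in CAR KO controls and at 2.65, 2.72, 2.83 and 2.91 in CAR KO rats given PB, so the groups overlapped. In SD rats it went from 2.84, 3.21, 2.84 and 2.88 to 6.89, 7.11, 7.35 and 6.56, with no overlap. The fold change was -0.088 ± 0.138 in CAR KO rats (limma adjusted p = 0.803) against 4.03 ± 0.138 in SD rats, and the responses differed by -4.12 ± 0.196 (limma adjusted p = 9.07e-08). A second Cyp2b2 probe gave -0.158. This difference passed in all 27 alternative fits.

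**Figure D1:**
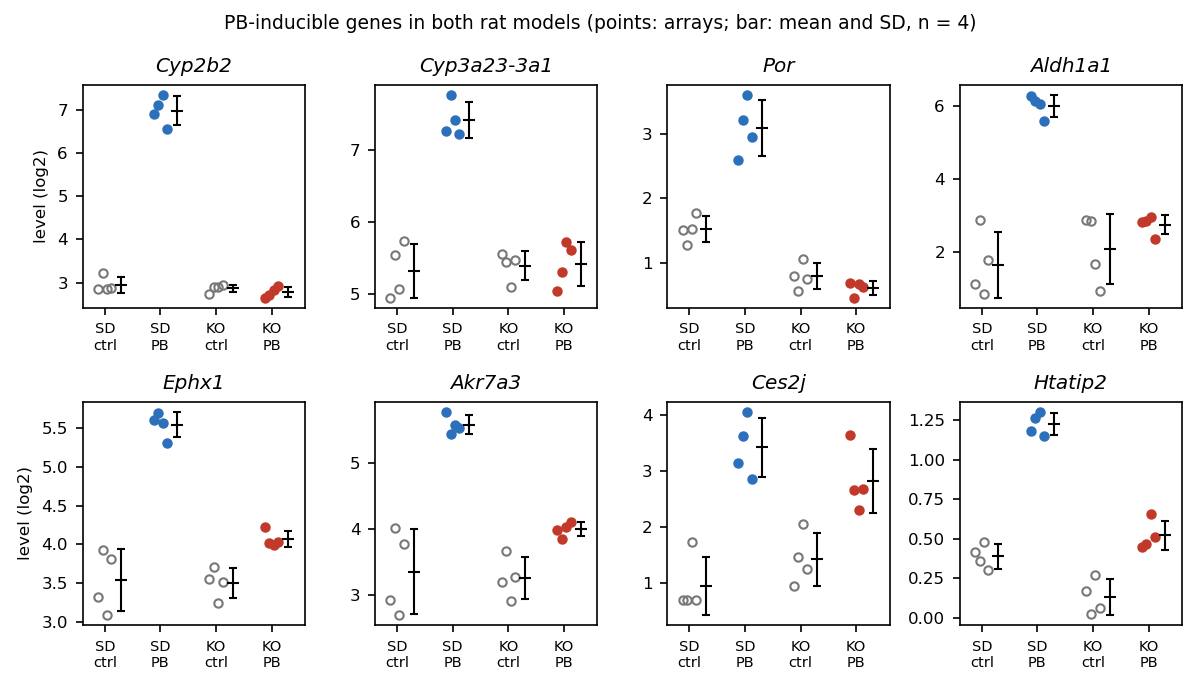
Levels (log2 of the processed signal minus the array's 75th percentile, with a separate vertical scale for each gene) of 8 phenobarbital-inducible genes on the 16 rat arrays. Points are arrays, open for control diet and filled for PB, and bars are the mean and SD (n = 4); the upper row (Cyp2b2, Cyp3a23-3a1, Por, Aldh1a1) overlaps between diets in CAR KO rats, while the lower row (Ephx1, Akr7a3, Ces2j, Htatip2) does not.

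Cyp3a23-3a1, a drug-metabolising P450 shared by CAR and PXR, was at 5.56, 5.45, 5.10 and 5.47 on control arrays and 5.05, 5.31, 5.72 and 5.61 on PB arrays of CAR KO rats. These groups overlapped, and the fold change of 0.028 ± 0.193 compares with 2.10 ± 0.193 in SD rats (difference -2.07 ± 0.274, limma adjusted p = 0.00329). Its sign in CAR KO rats turned without any 1 of 3 arrays. Cyp3a2 had a fold change of -0.63 ± 0.378 in CAR KO rats and 0.87 ± 0.377 in SD rats, and neither passed.

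Por, the reductase that feeds electrons to every microsomal P450, was at 0.80, 0.57, 1.06 and 0.75 on control and 0.70, 0.46, 0.67 and 0.62 on PB arrays. The groups overlapped at a fold change of -0.18 ± 0.176, whereas SD rats reached 1.57 ± 0.175 (difference -1.75 ± 0.249, limma adjusted p = 0.00461, but 0.734 with all 30 arrays of the series in 1 fit). The Por difference passed in 26 of 27 alternative fits, all but that one, which adds the chimeric mice. The same held for the differences of Ephx1, Gadd45b, Gstm1, Hal and Clybl below. Aldh1a1, a retinaldehyde dehydrogenase, varied widely among CAR KO controls at 2.87, 2.86, 1.68 and 0.92, and its PB arrays at 2.83, 2.86, 2.97 and 2.35 lay inside that range or barely above it. Its fold change was 0.67 ± 0.452 against 4.37 ± 0.451 in SD rats (difference -3.70 ± 0.641, limma adjusted p = 0.0171).

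Cyp2b21 and the efflux transporter Abcc3 were too dim in CAR KO rats to be tested there. Neither was above background on any CAR KO control array, and on PB arrays Cyp2b21 was above it on 1 and Abcc3 on 2 of 4. Both were higher on every PB array, at least 1.12-fold for Cyp2b21 and 2.17-fold for Abcc3, bounds for the background and scaling used here. A gene at background on all CAR KO arrays, such as Adipoq, could also be higher on every PB array. In SD rats both were above background on all 4 PB arrays, with fold changes of 8.24 ± 0.532 and 5.10 ± 0.332, sizes that rest on controls at or near background. The differences of response passed the test (limma adjusted p = 0.000677 for Cyp2b21 and 0.00375 for Abcc3).

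Gstm1, a glutathione transferase, had a fold change of -0.0094 ± 0.135, or 0.055 when arrays were centred on their median, so it has no direction in CAR KO rats, against 1.12 ± 0.135 in SD rats (difference -1.13 ± 0.192, limma adjusted p = 0.0164, but 0.888 with all 30 arrays). Gadd45b, a growth arrest and DNA damage gene, was at -1.71, -1.16, -1.45 and -1.57 on control arrays and lower on every PB array, at -1.97, -1.73, -1.88 and -2.13. That is -0.45 ± 0.204 (limma adjusted p = 0.292) where SD rats gave 1.78 ± 0.203, and the responses differed by -2.24 ± 0.289 (limma adjusted p = 0.00286, but 0.222 with all 30 arrays). Ugt2b1, a glucuronosyltransferase, and Alas1, the rate-limiting enzyme of haem synthesis, gave 0.70 ± 0.406 and 0.49 ± 0.198 with overlapping groups, against 3.23 ± 0.405 and 1.41 ± 0.197 in SD rats, and for neither did the difference pass (limma adjusted p = 0.0755 and 0.173).

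Over all genes that passed in SD rats, 4.3% of the 17010 tested there, the CAR KO values were small. PB raised 426 genes in SD rats (2.5% of those tested), of which 409 were tested in CAR KO rats. Their median fold change was 0.55 with CAR present and 0.063 in its absence, with CAR KO quartiles of -0.029 and 0.20. A positive CAR KO value was found for 284 of the 409, where 44.5% of all genes tested were positive. Of the 306 genes lowered there (1.8%), 303 were tested, with medians of -0.51 with CAR and -0.12 without it, and 229 had a negative CAR KO value.

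These genes were chosen on the SD arrays, which enlarges their SD values, so the gap between the medians is a description. All 4 PB arrays lay above all 4 control arrays for 68 of the 409 raised genes, 16.6%, where 3.71% of all genes tested in CAR KO rats did so and 7.11% of the brightest of 4 groups of equal size. All 4 PB arrays lay below all controls for 66 of the 303 lowered genes, 21.8%, against 7.1% of all genes. With arrays centred on their median in place of the 75th percentile these counts became 109 and 38, beside 9.08% and 4.06% of all genes. With normexp background correction they became 72 and 41, beside 4.31% and 4.73%.

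The medians in CAR KO rats were larger for genes with larger SD responses, but the share that separated by diet did not follow the SD response. The 78 genes raised at least 2-fold in SD rats had a median of 1.60 there and 0.16 in CAR KO rats, and 15 of them (19.2%) separated by diet in CAR KO rats in the same direction. The 331 raised less than 2-fold had medians of 0.46 and 0.058, and 53 separated (16%). The 39 lowered at least 2-fold had medians of -1.33 and -0.34, and 6 separated (15.4%). The 264 lowered less than 2-fold had medians of -0.46 and -0.11, and 60 separated (22.7%). At least 50% of the SD fold change was kept by 7 of the 78, 52 of the 331, 9 of the 39 and 63 of the 264. The responses themselves differed past the test for 59 of the 409 and 12 of the 303, where 95 of all 17813 genes tested for a difference did (0.533%, with 0.427% lower in CAR KO rats). The SD values that chose these genes also enter the difference, so a larger share among them is built in and is no separate support.

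**Figure D2:**
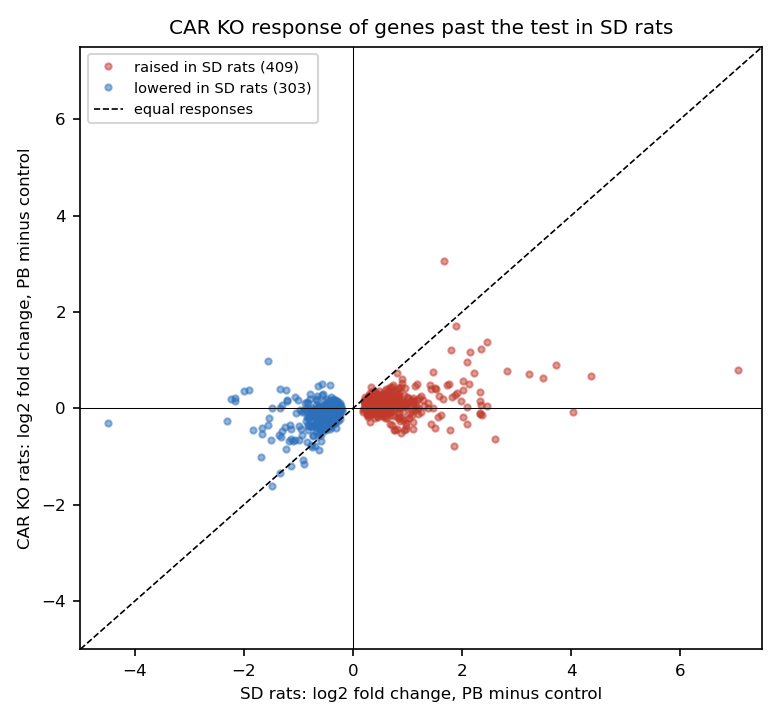
Log2 fold change (PB minus control) in SD rats on the horizontal axis and in CAR KO rats on the vertical axis, for the 409 genes raised and the 303 lowered past the test in SD rats and tested in both. The dashed line marks equal responses; most points lie near 0 on the vertical axis, with medians of 0.063 and -0.12.

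The genes named next separated by diet in CAR KO rats and, except where stated, passed in SD rats in the same direction; being picked for that, their values are descriptions, and none passed the test in CAR KO rats. Ces2j, a carboxylesterase, was at 0.94, 1.46, 2.06 and 1.24 on control arrays and 3.63, 2.65, 2.30 and 2.67 on PB arrays, a fold change of 1.39 ± 0.343 (limma adjusted p = 0.0868). SD rats gave 2.46 ± 0.343, and the difference of -1.08 ± 0.487 did not pass (limma adjusted p = 0.362).

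Its relative Ces2c kept less. Control arrays read -0.45, -0.38, 0.04 and -0.37 and PB arrays 1.32, 0.37, 0.19 and 0.55. The fold change was 0.90 ± 0.273 against 3.72 ± 0.273 in SD rats, a difference of -2.83 ± 0.387 (limma adjusted p = 0.00375).

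Ephx1, the microsomal epoxide hydrolase, was at 3.55, 3.70, 3.24 and 3.51 on control arrays and 4.22, 4.02, 3.99 and 4.03 on PB arrays. Every PB array was above every control, by 0.56 ± 0.163 on average, against 2.01 ± 0.163 in SD rats (difference -1.44 ± 0.231, limma adjusted p = 0.0104, but 0.262 with all 30 arrays). Akr7a3, an aldo-keto reductase that detoxifies aflatoxin aldehyde, went from 3.21, 3.68, 2.91 and 3.27 to 3.99, 3.86, 4.04 and 4.11. Its fold change of 0.73 ± 0.243 compares with 2.21 ± 0.242 in SD rats, and the difference did not pass (limma adjusted p = 0.0808). Dusp13b, a dual-specificity phosphatase, gave 0.77 ± 0.182 against 2.82 ± 0.182, a difference of -2.05 ± 0.258 that passed (limma adjusted p = 0.00275).

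Among glutathione transferases and sulfotransferases, 8 of the 32 tested members were higher on every PB array, 0 were lower on every PB array, against 3.71% and 7.1% of all genes, and the list's median was 0.12, where all genes had -0.022. None of the 32 (0) passed the test in CAR KO rats. Gsta5 stood at 7.46, 7.15, 7.34 and 7.38 on control arrays and 7.77, 7.74, 7.97 and 7.83 on PB arrays, 0.50 ± 0.228 against 1.17 ± 0.227 in SD rats. Gstt1 went from 1.08, 1.41, 1.19 and 1.18 to 1.78, 1.63, 1.67 and 1.55, 0.45 ± 0.0939 against 0.72 ± 0.0936. Gsta2 gave 0.52 ± 0.277 and Gstk1, a mitochondrial and peroxisomal member, 0.52 ± 0.151, and neither passed in SD rats (1.0 ± 0.276 and 0.018 ± 0.151).

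Of the NRF2-responsive antioxidant list 0 of 23 tested members passed, 5 were higher on every PB array, 1 was lower (all genes, 3.71% and 7.1%), and the median was 0.18. Nqo1, a quinone reductase, was at 0.23, 0.46, 0.56 and 0.88 on control arrays and 1.33, 1.26, 1.23 and 1.34 on PB arrays, a fold change of 0.76 ± 0.551, with the error of the shared fit, in which SD arrays ran from -1.54 to 2.04, and it did not pass in SD rats (limma adjusted p = 0.625). Srxn1, which repairs peroxiredoxins, gave 0.47 ± 0.131 against 1.13 ± 0.131 in SD rats. The efflux transporter Abcc4 was at -1.68, -1.53, -1.61 and -1.42 on control arrays and -1.32, -0.96, -1.04 and -1.19 on PB arrays. It gave 0.43 ± 0.0862 (limma adjusted p = 0.0532), 0.34 ± 0.0859 in SD rats, and a second probe gave 0.44. Slco1a4, an uptake transporter of bile acids and drugs, gave 0.68 ± 0.228 in CAR KO rats and 0.72 ± 0.227 in SD rats, where it did not pass (limma adjusted p = 0.0909). Ugt1a6 gave 0.29 ± 0.166 and 0.84 ± 0.165.

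A list of 39 phenobarbital-responsive genes known from wild-type liver had 28 members tested in CAR KO rats, of which 0 passed, 9 were higher and 2 lower on every PB array (all genes, 3.71% and 7.1%), and the median was 0.20. In SD rats 22 of 30 rose and 0 fell (all genes, 2.5% and 1.8%), and the median was 1.23. The response was smaller in CAR KO rats past the test for 11 of 30 (all genes, 0.427%). The 17 tested genes of the Cyp2a, Cyp2b, Cyp2c and Cyp3a families gave a median of -0.14, with 0 higher and 2 lower on every PB array. Those 2 were the male-predominant Cyp2a2 at -0.44 ± 0.135 and Cyp2b15 at -0.91 ± 0.186, and neither passed in SD rats. Cyp2b15 was above background on only 1 of 4 PB arrays in CAR KO rats, so its size is not a measured one. The 26 cholesterol synthesis genes had a median of 0.64 in SD rats, with 12 raised (all genes, 2.5%). In CAR KO rats their median was 0.077, with 0 raised (all genes, 0.0513%) and 1 higher on every PB array. The plot of list medians shows that the CAR KO medians lay between -0.25 and 0.27.

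**Figure D3:**
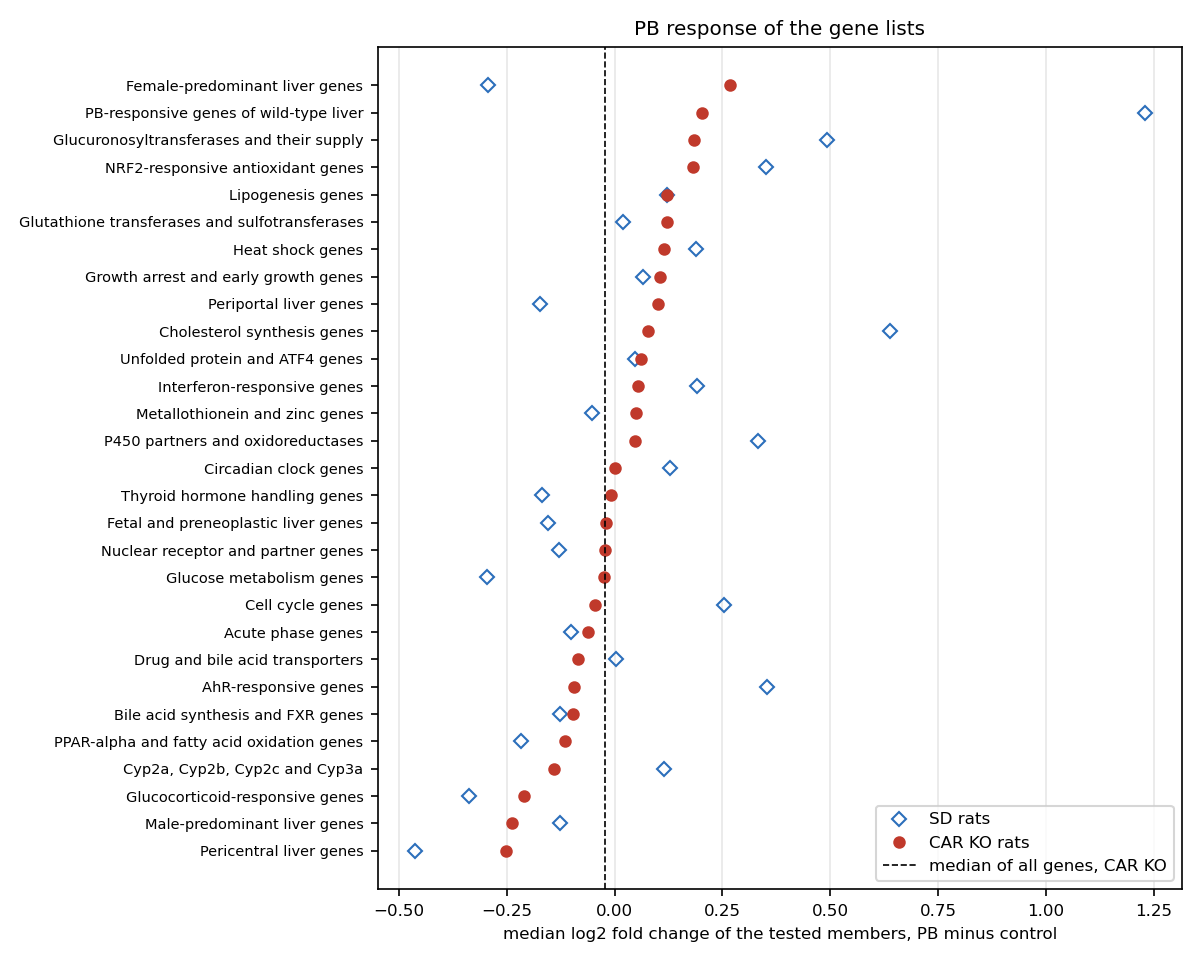
Median log2 fold change (PB minus control) of the tested members of 29 gene lists, filled circles for CAR KO rats and open diamonds for SD rats. The dashed line is the median of all genes tested in CAR KO rats (-0.022); the phenobarbital-responsive list lies at 0.20 in CAR KO and 1.23 in SD rats.

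The 36 genes and unnamed transcripts that passed in CAR KO rats were mostly lower: 27 fell, 0.154% of those tested, and 9 rose, 0.0513%. Of these, 19 carry a gene symbol, 14 lower and 5 higher. All 36 separated by diet, as did 10.8% of all genes tested. The count changed when single arrays or all SD arrays were left out of the fit. It was 11, 43, 31 and 15 without control arrays 1, 2, 3 and 4. Without PB arrays 1, 2, 3 and 4 it was 38, 7, 17 and 12. A fit of the 8 CAR KO arrays alone gave 0 genes by limma, with 3086 at an unadjusted p under 0.05. The share that rose depended on the scaling: 25% as tested, 41.5% with normexp, 41.2% after quantile normalization and 56.2% with median centring.

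Of the named genes, Zbtb16 and Slc22a6 kept their call without any single array and lost it in the fit of the 8 CAR KO arrays alone (limma adjusted p = 0.0818 for both). Zbtb16 (PLZF), a transcription factor strongly induced by glucocorticoids, was at -1.86, -1.78, -2.35 and -2.75 on control arrays and -4.91, -4.28, -5.03 and -6.22 on PB arrays. The groups were far apart, although only 2 of 4 PB arrays were above background. It fell by 2.93 ± 0.397 on the log2 scale (limma adjusted p = 0.0149), and by 1.17 with normexp background correction (limma adjusted p = 0.0197). SD rats gave -1.12 ± 0.396, which did not pass, and the difference did not pass either (-1.80 ± 0.562, limma adjusted p = 0.185).

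Slc22a6, the organic anion transporter OAT1, best known from kidney, was at -2.40, -2.70, -2.72 and -2.29 on control arrays and -3.48, -3.51, -3.29 and -3.43 on PB arrays. It was above background on all 8 arrays and its groups did not overlap. It fell by 0.90 ± 0.0916 on the log2 scale (limma adjusted p = 0.00188), and by 0.47 with normexp (limma adjusted p = 0.00876). The SD value was -0.22 ± 0.0914, and the difference of -0.68 ± 0.130 passed as tested (limma adjusted p = 0.0298) but in only 11 of 27 alternative fits, with adjusted p up to 0.0784 when 1 array was left out.

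Pfkfb1, the liver enzyme that makes and removes the main allosteric activator of glycolysis, was at 3.33, 3.26, 3.49 and 3.31 on control arrays and 1.88, 1.90, 2.30 and 2.63 on PB arrays. It fell by 1.17 ± 0.173 on the log2 scale (limma adjusted p = 0.0189), and passed without 6 of 8 arrays, the exceptions being control array 1 and PB array 2 (limma adjusted p up to 0.0739). SD rats gave 0.053 ± 0.173. The difference of -1.23 ± 0.245 passed as tested (limma adjusted p = 0.0402) but in only 10 of 27 alternative fits, with adjusted p up to 0.0918.

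Hsd11b1, which regenerates active glucocorticoid from its inert form in liver, was at 5.25, 5.19, 4.92 and 5.44 on control arrays and 4.28, 4.51, 4.66 and 4.67 on PB arrays. It fell by 0.67 ± 0.120 on the log2 scale (limma adjusted p = 0.0454). The call was at the edge: only without control array 3 did it pass, and the adjusted p without 1 array ran from 0.0429 to 0.129. SD rats gave -0.084 ± 0.120, and the difference did not pass (limma adjusted p = 0.162).

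Fmo2, a flavin monooxygenase, was at -2.55, -2.49, -2.81 and -2.91 on control arrays and -4.22, -4.01, -4.37 and -3.62 on PB arrays, and it fell by 1.37 ± 0.230 on the log2 scale (limma adjusted p = 0.0345). A second probe gave -1.25. The call held only without PB array 4 when 1 array was left out (limma adjusted p from 0.0371 to 0.111), and with normexp the fold change was -0.56 (limma adjusted p = 0.0521). Ablim3, an actin-binding protein, was at -1.24, -0.96, -0.78 and -1.12 on control arrays and -1.83, -2.33, -2.13 and -2.60 on PB arrays. It fell by 1.20 ± 0.179 on the log2 scale (limma adjusted p = 0.0189), and the call was lost without PB array 2 or PB array 4 (limma adjusted p up to 0.0788), or with all 30 arrays (0.447).

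Cdkn2a, a cell cycle inhibitor, and Myom1, a sarcomere protein, fell by 0.60 ± 0.102 and 0.80 ± 0.147 on the log2 scale and were above background on all 8 arrays. Cdkn2a kept its call without 3 of 8 arrays (control array 3, PB array 1 and PB array 3) and Myom1 only without control array 2, with limma adjusted p up to 0.122 and 0.129. Myom1 also fell in SD rats, by 0.75 ± 0.147 on the log2 scale. With normexp their CAR KO fold changes were -0.14 and -0.25, and neither passed (limma adjusted p = 0.314 and 0.136), nor did they with all 30 arrays in 1 fit (limma adjusted p = 0.646 and 0.794).

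The other 6 named genes that fell were dim. Pfn4, Or6b2, Paqr8 and Slc10a4 were not well above background on any PB array and were at least 1.80-fold, 1.97-fold, 1.94-fold and 1.62-fold lower there, a bound taken from the control mean to, on each PB array, the higher of the lowest signal well above background and the gene's own level (for Or6b2 the gene's own level). Slc6a11 and Drd4 were above it on 1 PB array each. Without 1 array, Drd4 and Or6b2 lost their call in every case, Paqr8, Pfn4 and Slc10a4 kept it in 1 case each, and Slc6a11 kept it without control arrays 1, 2 and 3 and PB array 1, with limma adjusted p up to 0.138 over these 6 genes (Slc10a4 met the filter in 5 of the 8 cases). Pfn4, a profilin, also passed as lower in SD rats, where it was not above background on any PB array. With normexp the 6 fold changes lay between -0.14 and -0.074 and none passed (limma adjusted p from 0.322 to 0.563), so the bounds hold for the background and scaling used here.

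The rise of Clybl ran against SD rats. Clybl, a mitochondrial lyase of the citramalyl-CoA pathway, was at 0.27, 0.31, 0.06 and 0.08 on control arrays and 0.69, 0.71, 0.48 and 0.74 on PB arrays of CAR KO rats. In SD rats it was at 0.17, 0.15, 0.42 and 0.22 on control arrays and -0.13, -0.19, -0.21 and -0.22 on PB arrays, so each model separated by diet, in opposite directions. The fold changes were 0.48 ± 0.0808 (limma adjusted p = 0.0345) and -0.42 ± 0.0806 (limma adjusted p = 0.00961), and the difference was 0.90 ± 0.114 (limma adjusted p = 0.00275). The CAR KO call alone held only without control array 2 or PB array 3 (limma adjusted p up to 0.105), while the difference passed without each of the 16 arrays. With all 30 arrays in 1 fit neither passed (limma adjusted p = 0.72 for the CAR KO response and 0.358 for the difference).

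Htatip2, a short-chain dehydrogenase family protein, is the 1 named PB-raised gene of SD rats above background on all arrays that also rose in CAR KO rats. It was at 0.17, 0.02, 0.27 and 0.06 on control arrays and 0.45, 0.47, 0.65 and 0.51 on PB arrays. The fold change was 0.39 ± 0.0706 (limma adjusted p = 0.0454) against 0.84 ± 0.0704 in SD rats, and the difference did not pass (-0.45 ± 0.0999, limma adjusted p = 0.0683). Without 1 array the CAR KO call held only when control array 3 was left out (limma adjusted p up to 0.113), and with all 30 arrays it was lost (0.614).

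The remaining 3 named genes that rose were not well above background on any CAR KO control array. Zfp786, a zinc finger protein, was at least 6.38-fold higher on PB arrays, at -4.47, -3.38, -3.33 and -2.84, and was above background on all 4 of them. It lost its call without PB array 2 (limma adjusted p = 0.0617), and it also rose in SD rats, at least 2.99-fold. Lmx1a and Or52u1 were at least 2.10-fold and 1.68-fold higher by the probe used, each above background on 3 PB arrays. A second Lmx1a probe gave less, 0.71 ± 0.355 on the log2 scale, and was above background on only 1 PB array. Lmx1a and Or52u1 lost the call without control array 1 (both) or control array 4 (Or52u1) among the 5 cases in which they met the filter, with limma adjusted p up to 0.0621. With normexp the fold changes of Zfp786, Lmx1a and Or52u1 were 0.62, 0.37 and 0.28 on the log2 scale, and only Zfp786 passed (limma adjusted p = 0.0255, 0.0521 and 0.0806), so these bounds too hold only for the background and scaling used here.

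**Figure D4:**
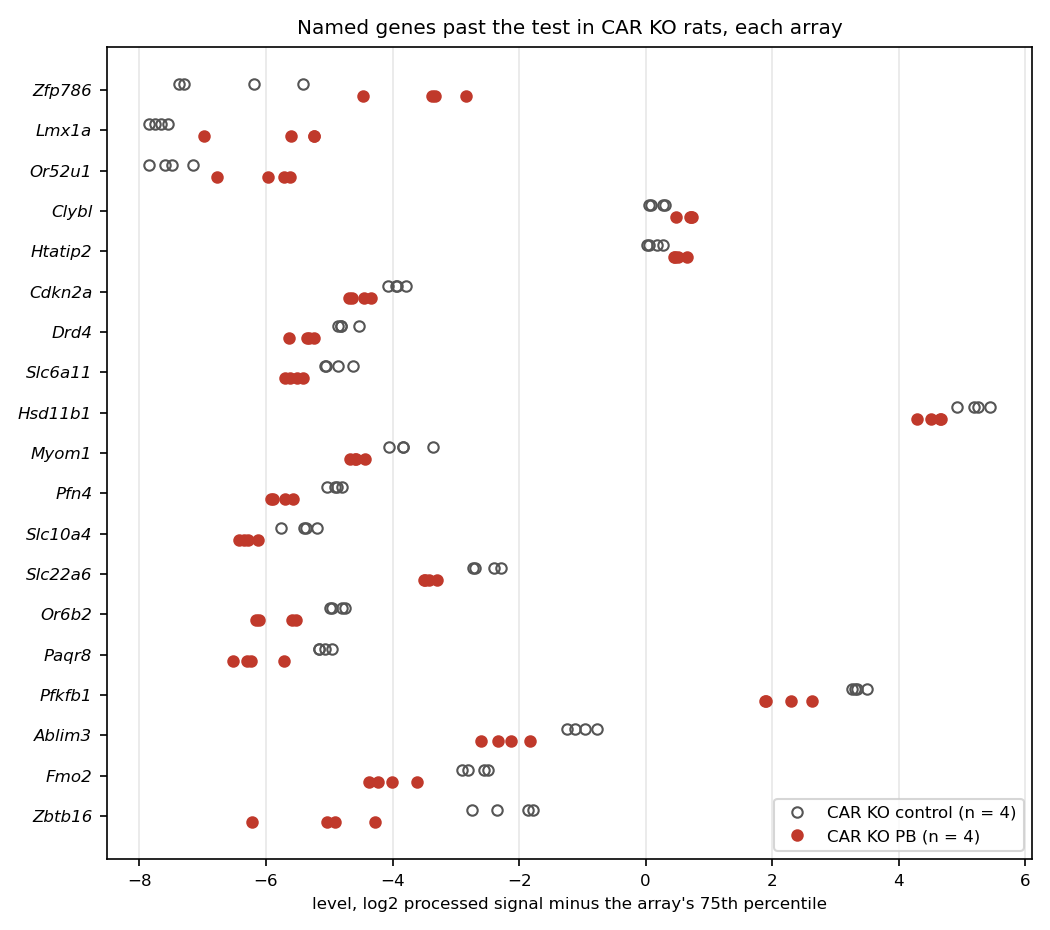
Level (log2 of the processed signal minus the array's 75th percentile) on each of the 8 CAR KO arrays for the 19 named genes that passed the test, open circles for control diet and filled circles for PB. The groups do not overlap for any of the 19; levels below about -5 lie near the background of the scanner.

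Glucocorticoid-responsive genes held 2 of the named falls, Zbtb16 and Hsd11b1. Of 35 tested members, 2 fell and 0 rose, where 0.154% of all genes tested fell. The list was chosen with earlier results of these data known, so its counts are descriptions. On every PB array 9 were lower and 0 higher, where 7.1% and 3.71% of all genes were. With median centring 4.06% of all genes were lower, and the list was not counted under that scaling. The median was -0.21. The median was between -0.31 and -0.067 over all alternative settings. In SD rats it was -0.34, with 4 of 34 members lowered and 1 raised (all genes, 1.8% and 2.5%). Fkbp5, a classical glucocorticoid target and receptor co-chaperone, was at 0.09, 0.13, 0.50 and 0.49 on control arrays and -0.06, 0.04, 0.01 and -0.29 on PB arrays, a fold change of -0.38 ± 0.148 in CAR KO rats and -0.37 ± 0.148 in SD rats. Tsc22d3 (GILZ), another such target, went from 1.14, 1.27, 1.85 and 1.33 to 0.97, 0.85, 0.73 and 0.90, -0.53 ± 0.188. Igfbp1, a fasting-induced growth factor binding protein, gave -1.50 ± 0.384 and the phosphatidate phosphatase Lpin1 -0.98 ± 0.243. None of these 4 passed (limma adjusted p = 0.224, 0.190, 0.0949 and 0.0875).

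For PPAR-alpha and fatty acid oxidation genes, 0 of 45 passed, 6 were lower and 0 higher on every PB array (all genes, 7.1% and 3.71%), and the median was -0.12. Cpt1a, which admits fatty acids into mitochondria, was at 1.67, 1.97, 1.19 and 1.12 on control arrays and 0.62, 0.91, 0.86 and 0.17 on PB arrays, -0.85 ± 0.270 against -1.23 ± 0.269 in SD rats, where it passed. Elovl6, a fatty acid elongase, lay the other way, at -0.56, -0.01, 0.31 and -1.82 on control and 2.03, 0.58, 0.59 and 0.90 on PB arrays, 1.55 ± 0.483. A second Elovl6 probe gave 1.20. Elovl6 did not pass (limma adjusted p = 0.151), and SD rats gave 0.98 ± 0.482. Of 24 lipogenesis genes tested, 1 was higher and 1 lower on every PB array.

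In the zonal and sex-dependent lists 0 genes passed the test, and their counts below stand beside 3.71% of all genes higher and 7.1% lower on every PB array. Pericentral genes had a median of -0.25, with 4 of 18 lower and 0 higher on every PB array, and periportal genes one of 0.10, with 0 of 24 lower and 3 higher. Hal, the periportal histidine ammonia-lyase, was at 5.92, 5.94, 6.33 and 6.33 on control arrays and 6.83, 6.43, 6.57 and 6.73 on PB arrays, 0.51 ± 0.132, while SD rats gave -0.57 ± 0.132, and the responses differed by 1.07 ± 0.187 (limma adjusted p = 0.0175, but 0.183 with all 30 arrays). Male-predominant genes had a median of -0.24, with 4 of 23 lower and 0 higher, among them the transporter Ust5r at -1.0 ± 0.233. Female-predominant genes had a median of 0.27, with 2 of 16 lower and 0 higher. Cyp7b1, an oxysterol hydroxylase, gave -1.11 ± 0.441 and the glycolate oxidase Hao1 -0.47 ± 0.0923, both lower on every PB array.

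Kcnh1, Zfp354a and Abcb4 were lower in both models, and for Kcnh1 and Zfp354a the values were nearly the same. These 3 were picked for passing in SD rats and for separating by diet in the same direction without CAR. Likeness between the models is therefore partly built in, and the values of these genes are descriptions. All 303 lowered genes together had medians of -0.51 with CAR and -0.12 without it. Kcnh1, a potassium channel gene, was at -1.74, -1.96, -1.06 and -1.48 on control arrays and -3.17, -3.62, -2.13 and -2.72 on PB arrays, -1.35 ± 0.285 against -1.33 ± 0.284 in SD rats. Zfp354a, a zinc finger protein, was at -1.96, -1.75, -1.37 and -2.04 and then -2.88, -2.96, -3.0 and -3.08, -1.20 ± 0.254 against -1.14 ± 0.253. The phospholipid transporter Abcb4 gave -0.50 ± 0.115 against -0.67 ± 0.115. These 3 passed in SD rats but not in CAR KO rats (limma adjusted p = 0.0576, 0.0584 and 0.0806), and none of the differences passed. The PXR gene Nr1i2 was at 4.69, 4.82, 4.88 and 4.82 on control arrays and 4.57, 4.41, 4.58 and 4.49 on PB arrays, -0.29 ± 0.0963 against -0.39 ± 0.0960, which passed in SD rats only.

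The direction of small differences moved with brightness. With the genes tested split by mean level into 4 groups of equal size, among the dimmest, 0.98% were higher and 9.69% lower on every PB array, with a median of -0.17. Among the brightest 7.11% were higher and 5.33% lower, with a median of 0.012. Of the 36 calls, 17 (5 higher and 12 lower) came from the dimmest group, and 23 were above background on all 8 arrays, 4 higher and 19 lower. The part of brightness in the results above was not tested.

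**Figure D5:**
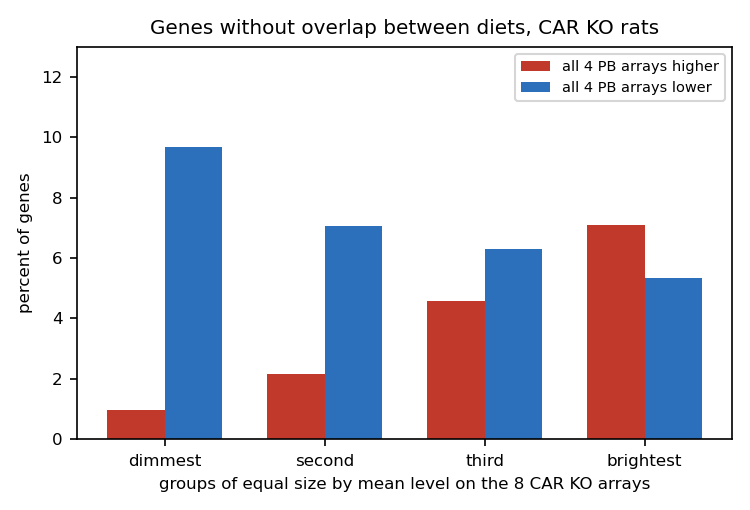
Percent of the genes tested in CAR KO rats for which all 4 PB arrays lay above (red) or below (blue) all 4 control arrays, in 4 groups of equal size by mean level on the 8 arrays. The share of higher genes runs from 0.98% to 7.11% and that of lower genes from 9.69% to 5.33% between the dimmest and the brightest group.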

How the data were processed

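Liver RNA of male rats was measured on 1-colour Agilent arrays. The deposited scanner files hold spot intensity from Feature Extraction 10.7.3.1 (protocol GE1_107_Sep09), per the file headers: the processed signal, background-subtracted but not scaled between arrays. The authors' series matrix holds log2 values, deposited with no scale stated. It correlated at 1 with log2 of the processed signal on every CAR KO array, its column medians there ran from -3.46 to -3.39, and it served as an alternative only.

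Groups came from the sample titles. Control spots (4259) were left out, outlier spots dropped and repeated probes averaged. Of 30367 probes, 18004 matched 15170 symbols by accession in RefSeq genes of assembly GRCr8. Of several probes of a gene the brightest was used. Levels were scaled by subtracting the array's 75th percentile of log2 processed signal. The 16 rat arrays made 1 limma 3.58.1 fit (lmFit, eBayes, R 4.3.3) with Benjamini-Hochberg adjustment over all genes tested. On simulated data for the CAR KO comparison (17552 genes, 200 changed), 62% of 1.5-fold and 76% of 2-fold changes were recovered, with 8 false among 176 calls. The simulated noise was independent between genes and arrays, without array effects or the shift with brightness seen here. These rates therefore check the fit and are not rates for these arrays.

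Genes named are those past the test, fixed genes, and the largest members of fixed lists or of the SD calls that separated by diet. The members and lists were chosen with earlier results of these data known. Alternatives changed background correction, scaling, filter, samples, block, weights, spread, probe and single arrays.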

Additional observations from a re-analysis of the deposited data

Results flagged for a closer look

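Of the 62 genes named here that were tested in CAR KO rats, the response to PB differed from that of SD rats past the test of the difference (CAR KO minus SD, log2) in 15. Over all genes tested for a difference, 95 of 17813 did (0.533%). Many of the 62 were named for their response in SD or CAR KO rats, which enters the difference. A larger share among them is therefore built in and is no separate support. It was smaller or more negative in CAR KO rats for Cyp2b2 (-4.12), Aldh1a1 (-3.70), Ces2c (-2.83), Gadd45b (-2.24), Cyp3a23-3a1 (-2.07), Dusp13b (-2.05), Por (-1.75), Paqr8 (-1.57), Ephx1 (-1.44), Pfkfb1 (-1.23), Gstm1 (-1.13), Usp2 (-1.0) and Slc22a6 (-0.68), and more positive for Hal (1.07) and Clybl (0.90). Cyp2b21 (-7.25) and Abcc3 (-3.47) also passed, with CAR KO arrays too dim for a test there. Usp2, a clock-linked ubiquitin protease, gave -0.33 in CAR KO and 0.68 in SD rats. The Usp2 difference did not pass with all 30 arrays or with the replicate number as a block (limma adjusted p up to 0.0567). Paqr8 was not above background on CAR KO PB or SD control arrays, so its size is not a measured one. Its difference did not pass with normexp, with that block or with another estimate of the spread (limma adjusted p up to 0.211).

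Of 124 groups of 4 arrays, 3 had 1 array far from the others: Drd4 on control array 1 (-4.53, others -4.86 to -4.81), Clybl on PB array 3 (0.48, others 0.69 to 0.74) and Ces2c on control array 3 (0.04, others -0.45 to -0.37). Chance gives such a gap in about 1 of 20 groups.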

How the results depend on the processing

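The number of genes past the test in CAR KO rats, 36 as tested, was 17 after quantile normalization, 23 with all 30 arrays in 1 fit, 351 with array weights, 1712 without the filter on dim probes and 0 in the 8 CAR KO arrays alone, and 7 to 43 when 1 array was left out. In SD rats 732 became 3523 without the filter, 186 with the SD arrays alone, 200 with all 30 arrays, and 396 to 686 without 1 array. The difference of responses, 95 genes, fell to 39 with all 30 arrays and was 64 to 110 without 1 array. Of the genes raised in SD rats, 68 separated in CAR KO rats as tested and 109 with median centring; of those lowered, 66 as tested, 41 with normexp and 38 with median centring, alternatives chosen after seeing the data. Their CAR KO medians stayed between 0.059 and 0.13 and between -0.13 and -0.052. The causes of these changes were not tested.

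Among the named genes, Gstm1 turned from -0.0094 to 0.055 with median centring and ran from -0.12 to 0.061 without 1 array, and Cyp3a23-3a1 ran from -0.072 to 0.15. Same-numbered control and PB arrays of CAR KO rats did not deviate together (correlations from -0.20 to 0.081). This gave no sign of pairing by number but cannot show how the animals were numbered. On the rat slides the number is also the slide column, so a block by number is a block by column. With the number as a replicate block, 24 genes passed in CAR KO rats (20 of the 36), 556 in SD rats and 65 for the difference. Slide as a random block was not run, because each slide holds 1 rat model and its effect could not be fitted. Only 4 arrays a group, and probes near background, limit what could be called.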
